A study of Mus musculus with 6 samples.

Results

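Imprinted genes are expressed mainly from the copy inherited from a single parent. The members described here are 33 imprinted mouse genes listed by name, 13 expressed from the maternal and 20 from the paternal copy, out of 34745 genes in the deposited table. All 33 were found by symbol, in 17 domains, and 25 of them had at least 1 FPKM (fragments scaled by transcript length and by the library's total) in at least 2 libraries. The rule that chose them is a list of names and uses no measured value, though it was set with earlier results of these data known.

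Islets were isolated from the pancreas of C57BL/6 mice at 8 weeks of age, and their RNA was sequenced in 6 libraries of 3 groups with 2 each. The KO+DNMT3A libraries came from βRapKO islets that received Dnmt3a, which encodes a de novo DNA methyltransferase, through a lentiviral vector. The KO libraries came from βRapKO islets, whose name refers to loss in beta cells of Raptor, the subunit that defines the growth-controlling kinase complex mTORC1. The WT libraries came from wild-type islets. The deposited column names of the KO and WT libraries also carry the word GFP, which the labels do not explain. The Cre driver, the promoter of the lentiviral gene, the sex of the mice and any pooling of mice are not given in the sources used here, nor is it said that each library had a mouse of its own. The p-values therefore measure only how far these libraries spread, part of which may be technical.

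Most imprinted genes lie in clusters. Each cluster is governed by an imprinting control region that is DNA-methylated on a single parental copy, and the mark, set in the germ line, is kept through cell division by maintenance methylation and by zinc finger proteins such as ZFP57. In many clusters a long noncoding RNA made from one parental copy silences protein-coding neighbours on the same copy. Several members act in islet cells or in growth: Nnat in the maturation of secretory proteins in beta cells, Grb10 as an adaptor that binds the insulin receptor and is a substrate of mTORC1, Gnas as the stimulatory G protein through which incretin receptors raise cyclic AMP, and Igf2, H19, Cdkn1c and Plagl1 in fetal growth. An FPKM value sums both parental copies, so these data hold no measurement of allelic expression. Of the maternally expressed members, 6 (Gnas, Grb10, Igf2r, Ube3a, Asb4 and Trappc9) are listed here as having imprinting that depends on tissue or cell type.

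The libraries differed in ways that the groups do not explain. The steps between low values imply 1919417 and 1117663 gene-assigned fragments in the KO+DNMT3A libraries, 1425712 and 780228 in KO, and 244763 and 973735 in WT. A single fragment on a 2-kb transcript was thus worth 0.26 FPKM in KO+DNMT3A replicate 1 and 2.04 FPKM in WT replicate 1. In KO replicate 2 and WT replicate 1, the insulin-poor libraries, Ins1 and Ins2 together made up 0.109% and 0.170% of the summed FPKM, against 16.5% to 30.5% in the other 4. Beta cell markers (8 of 8 tested) summed to 1612 FPKM in KO replicate 2 and 1545 FPKM in WT replicate 1, against 124455 to 218052 FPKM in the others, with Mafa listed at 0 in both and Slc2a2 in WT replicate 1. Alpha cell markers summed to 1338 to 2596 FPKM over all 6 libraries. Of 5 acinar markers, Prss2, Cpa1, Cel and Amy2b were listed at 0 in every library, and Cela1 was 4.72 and 4.06 FPKM in KO+DNMT3A, 5.72 and 10.5 in KO, and listed at 0 in both WT libraries. Rptor, the targeted gene, was 0.714 and 1.93 FPKM in KO+DNMT3A, 0.378 and 1.51 in KO, and 0.80 and 1.06 in WT. KO replicate 2 and KO+DNMT3A replicate 2 lay above both WT libraries, while replicate 1 of each of these groups lay below both. On the longest transcript these values rest on about 9.0 and 14.2 fragments in KO+DNMT3A, 3.6 and 7.7 in KO, and 1.3 and 6.8 in WT. KO replicate 2 and WT replicate 1 were insulin-poor, but the KO+DNMT3A libraries, also from βRapKO islets, were not. With so few fragments in WT, and with replicates on opposite sides of WT, Rptor cannot check the KO label either way. Group names below are the labels.

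Promoter sequences show how several of these genes are arranged. Those printed here are 300-base windows, 250 bases before and 50 after the annotated start, from RefSeq (GRCm38.p6), 5′ to 3′ on the gene's own strand; 26 of the 33 members had at least 1 such window, 42 in all. The windows were searched on both strands for TGCCGC, the 6-base motif that ZFP57 is known to bind when methylated, which reads GCGGCA on the other strand. It occurred in 11 of the 42 member windows (26.2%) and in 3813 of all 32851 promoter windows of that length (11.6%). Among windows with at least 10 CG dinucleotides it occurred in 9 of 23 member windows (39.1%) and 22.5% of all. These counts are not all of separate sequence. Overlapping Mest windows with the same matches enter both member counts, and the window shared by Snrpn and Snurf enters the first count for each gene. Windows of all promoters were counted in the same way. The members with a match were Meg3, Zim1 and Grb10, maternally expressed, and Nnat, Mest, Nap1l5, Snrpn, Snurf, Igf2 and Plagl1, paternally expressed. A match is a description of the letters and no measurement of binding or methylation.

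The windows below belong to members described by level further on, with each motif in capitals. Mest lies at chr6:30737803-30738102 (plus strand), Nap1l5 at chr6:58907077-58907376 (minus), Nnat at chr2:157559828-157560127 (plus), Snurf, whose window is also one of those of Snrpn, at chr7:60005150-60005449 (minus), and Meg3 at chr12:109540746-109541045 (plus).
Mest: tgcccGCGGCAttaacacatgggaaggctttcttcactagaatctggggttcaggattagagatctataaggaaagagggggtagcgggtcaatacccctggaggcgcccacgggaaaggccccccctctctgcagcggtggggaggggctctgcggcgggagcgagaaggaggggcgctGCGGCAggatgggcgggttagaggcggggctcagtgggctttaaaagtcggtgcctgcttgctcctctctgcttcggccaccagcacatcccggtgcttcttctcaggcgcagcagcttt
Nap1l5: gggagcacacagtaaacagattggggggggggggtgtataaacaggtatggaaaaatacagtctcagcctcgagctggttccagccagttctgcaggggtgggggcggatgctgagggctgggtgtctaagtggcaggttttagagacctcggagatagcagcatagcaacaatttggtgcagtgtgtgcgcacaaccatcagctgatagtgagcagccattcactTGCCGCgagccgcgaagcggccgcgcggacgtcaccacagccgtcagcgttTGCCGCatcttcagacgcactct
Nnat: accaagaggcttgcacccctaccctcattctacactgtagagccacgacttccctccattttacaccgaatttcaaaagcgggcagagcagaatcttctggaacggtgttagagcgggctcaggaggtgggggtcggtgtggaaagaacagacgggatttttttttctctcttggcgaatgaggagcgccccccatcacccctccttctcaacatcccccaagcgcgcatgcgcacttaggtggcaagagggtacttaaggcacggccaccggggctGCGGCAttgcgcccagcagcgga
Snurf: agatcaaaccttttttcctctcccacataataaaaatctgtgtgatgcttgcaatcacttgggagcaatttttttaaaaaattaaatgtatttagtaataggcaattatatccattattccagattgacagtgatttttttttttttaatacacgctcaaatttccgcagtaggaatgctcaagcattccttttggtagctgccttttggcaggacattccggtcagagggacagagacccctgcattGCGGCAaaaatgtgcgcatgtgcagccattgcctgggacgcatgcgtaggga
Meg3: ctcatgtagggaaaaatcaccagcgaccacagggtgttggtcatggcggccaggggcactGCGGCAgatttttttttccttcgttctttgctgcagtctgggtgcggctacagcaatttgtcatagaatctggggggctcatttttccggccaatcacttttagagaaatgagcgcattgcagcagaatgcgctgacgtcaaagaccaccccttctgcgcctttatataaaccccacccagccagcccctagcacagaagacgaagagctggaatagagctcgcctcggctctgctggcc
Mest and Nap1l5 each held 2 matches, and Nnat, Snurf and Meg3 held 1 each.

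Peg3 and Usp29 are read in opposite directions from a shared promoter. Their starts, at 6730419 and 6730583 on chromosome 7, leave 163 bases between them, and the windows share 263 bases. The Peg3 window (chr7:6730370-6730669, minus strand) is shown because the levels of these neighbours differ so widely below; the capitals mark the bases between the starts, and TGCCGC is not in this window.
Peg3: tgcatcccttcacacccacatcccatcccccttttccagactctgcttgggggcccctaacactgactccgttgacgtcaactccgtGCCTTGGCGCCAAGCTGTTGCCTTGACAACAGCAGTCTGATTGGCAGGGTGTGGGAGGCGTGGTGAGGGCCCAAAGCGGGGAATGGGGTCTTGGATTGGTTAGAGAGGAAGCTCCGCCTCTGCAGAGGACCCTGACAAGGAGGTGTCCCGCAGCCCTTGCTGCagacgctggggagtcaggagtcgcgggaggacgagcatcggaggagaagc

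Levels of the 33 members ran from the most abundant few percent of tested genes down to 0. Gnas, Meg3 and Peg3 had the highest mean FPKM over the 6 libraries, at ranks 223, 389 and 487 of 13233 tested genes. Ndn, Impact, Slc38a4, Nap1l5 and Snrpn followed at ranks 836 to 1608. The next, Airn, was at rank 3332, and Sgce was the lowest tested member at rank 12650. The growth genes of fetal life were near or at 0: Igf2 reached at most 0.625 FPKM, Plagl1 0.825 FPKM, Dlk1 0.899 FPKM and Cdkn1c, a cell cycle inhibitor gene, 0.910 FPKM. Peg10, derived from a retrotransposon, reached at most 1.32 FPKM, in WT replicate 2. H19 was listed at 2.16 FPKM in WT replicate 1 and at 0 in the others, and Phlda2 at 1.38 FPKM in KO+DNMT3A replicate 1 and at 0 in the others; on their longest transcripts these are about 1.2 and 2.0 fragments. Magel2 was listed at 0 in all 6 libraries. These 8 members did not pass the filter and entered no test.

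**Figure D1:**
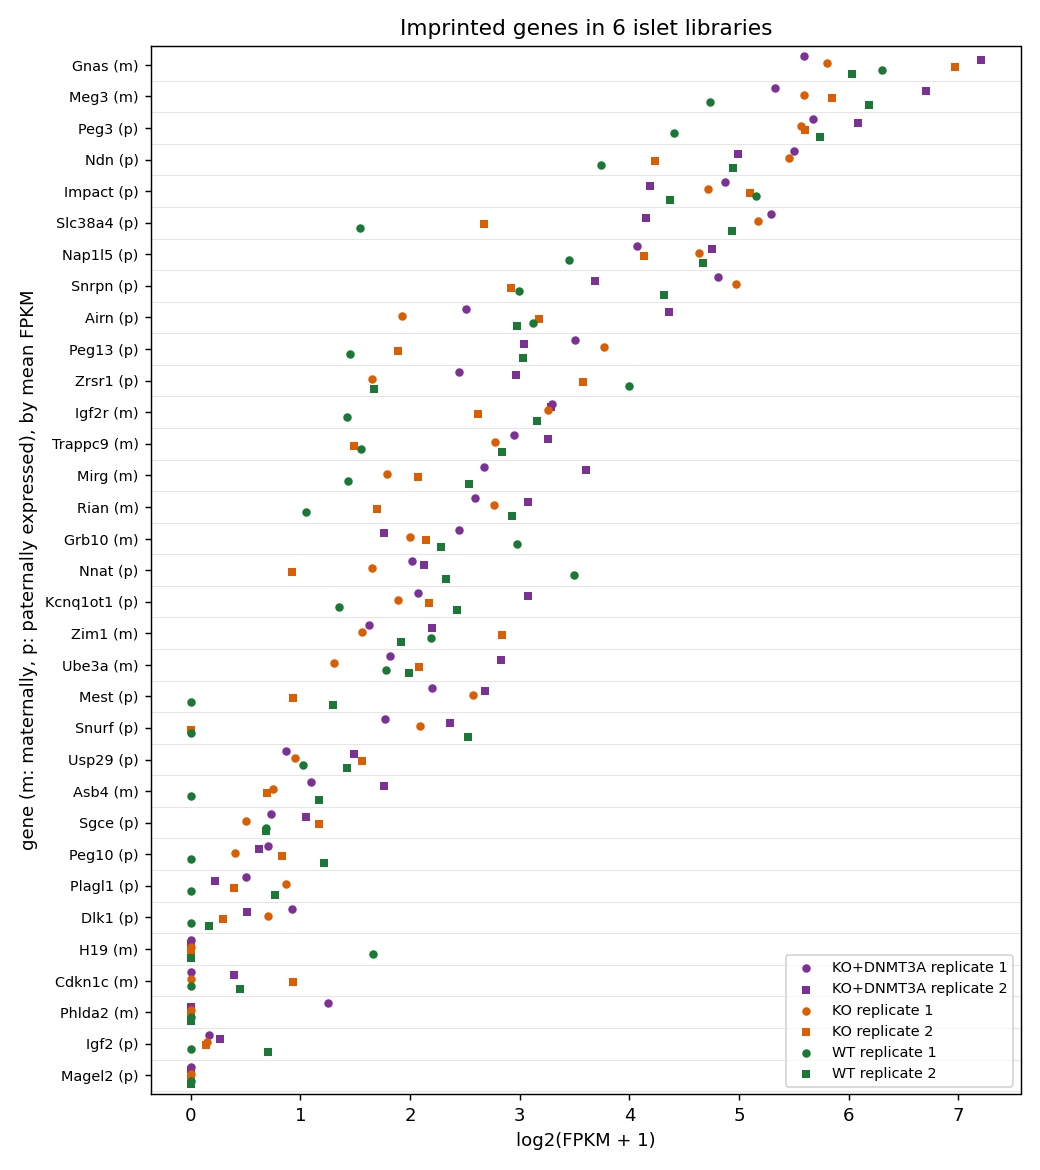
Level of each of the 33 imprinted genes as log2(FPKM + 1), 1 point per library, ordered by mean FPKM; colour gives the group and shape the replicate, and m or p marks maternal or paternal expression. Gnas, Meg3 and Peg3 head the order and Magel2 is at 0 throughout, while the points of KO replicate 2 and WT replicate 1 lie to the left for Slc38a4, Peg13 and Trappc9.

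Among maternally expressed members Gnas (ENSMUSG00000027523, chr2:174284320-174346744, GRCm38/mm10) was the most abundant. It was 47.4 and 147 FPKM in KO+DNMT3A, 54.8 and 125 in KO, and 78.2 and 64.5 in WT. The replicate numbered 2 was the higher in KO+DNMT3A and in KO, and the WT values lay inside the range of both. Mean FPKM was 97.1 ± 70.3 in KO+DNMT3A, 89.7 ± 49.3 in KO and 71.3 ± 9.69 in WT (SD, n = 2 each). The gene has 24 annotated transcripts, some of which start at upstream promoters with other parental rules, and the single FPKM value joins them. In most tissues the main transcript is made from both copies.

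Meg3, Rian and Mirg (chr12:109541001-109749460 from first to last) are noncoding RNAs transcribed in the same direction from the maternal copy; Rian is the host of small nucleolar RNAs and Mirg of a large microRNA cluster. Meg3 was 39.2 and 103 FPKM in KO+DNMT3A, 47.3 and 56.7 in KO, and 25.7 and 71.9 in WT. Mirg was 5.39 and 11.2 FPKM in KO+DNMT3A, 2.46 and 3.21 in KO, and 1.70 and 4.80 in WT. Both KO+DNMT3A libraries were thus above all 4 others for Mirg, while the groups overlapped for Meg3. Rian was 5.03 and 7.43 FPKM in KO+DNMT3A, 5.79 and 2.24 in KO, and 1.07 and 6.60 in WT. Meg3 stood 7.27 to 19.2 times above Mirg and 7.79 to 25.3 times above Rian within a library. Dlk1, the paternally expressed gene of this cluster, which encodes a Notch-like membrane protein, was under 1 FPKM in every library.

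In the Peg3 cluster the paternally expressed Peg3 (ENSMUSG00000002265, chr7:6703892-6730431, minus strand) encodes a large zinc finger protein. It was 50.01 and 67.1 FPKM in KO+DNMT3A, 46.4 and 47.7 in KO, and 20.2 and 52.6 in WT. The KO libraries were close together, and WT replicate 1 was the lowest of the 6. Usp29, a ubiquitin-specific protease gene that shares the promoter printed above, was 0.823 and 1.81 FPKM in KO+DNMT3A, 0.931 and 1.94 in KO, and 1.03 and 1.69 in WT. Peg3 stood 19.6 to 60.7 times above it within a library. Zim1, the maternally expressed zinc finger gene next to them, was 2.09 and 3.58 FPKM in KO+DNMT3A, 1.95 and 6.14 in KO, and 3.56 and 2.77 in WT, with all groups overlapping.

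**Figure D2:**
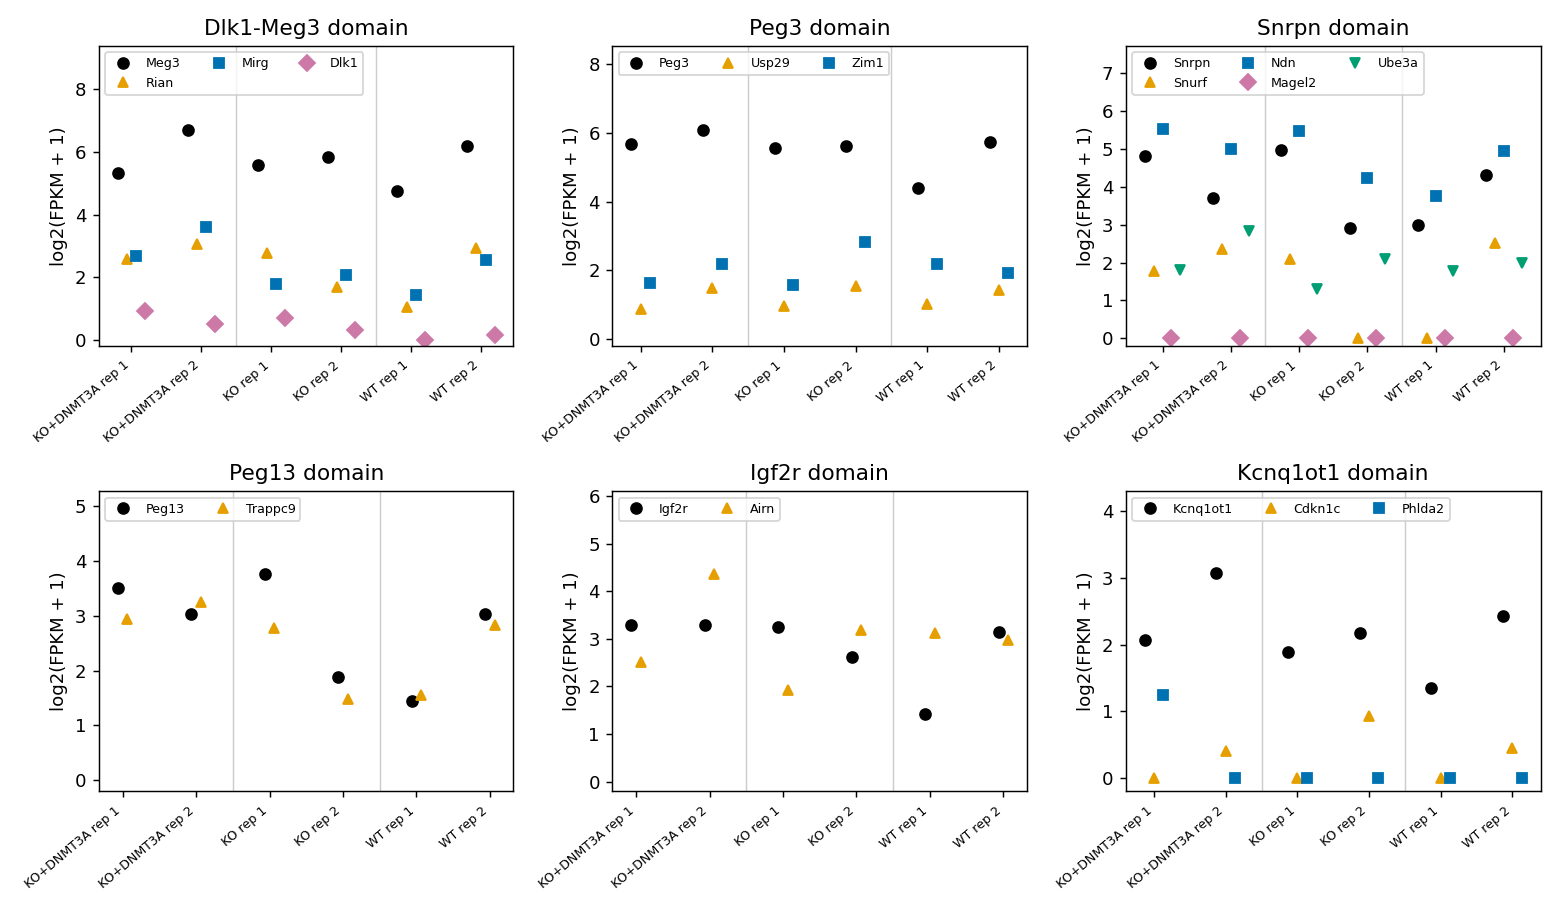
Levels as log2(FPKM + 1) in each of the 6 libraries for 6 imprinted domains that hold at least 2 of the members; symbols are genes, and vertical lines part the groups. Meg3 and Peg3 stand far above their neighbours in every library, and Peg13 and Trappc9 are both low in KO replicate 2 and WT replicate 1.

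The Snrpn cluster on chromosome 7 holds the mouse counterparts of genes lost in human Prader-Willi syndrome. Ndn (ENSMUSG00000033585, chr7:62346569-62350262), which encodes necdin, was 44.4 and 30.9 FPKM in KO+DNMT3A, 42.9 and 17.8 in KO, and 12.4 and 29.8 in WT. Snrpn, which encodes the splicing protein SmN, was 27.0 and 11.9 FPKM in KO+DNMT3A, 30.3 and 6.55 in KO, and 6.96 and 18.9 in WT. For both genes KO replicate 2 and WT replicate 1 were the lowest libraries. Snurf shares exons and strand with Snrpn. It was listed at 2.41 and 4.14 FPKM in KO+DNMT3A, 3.25 and 0 in KO, and 0 and 4.76 in WT, each value above 0 standing for a single fragment. Ube3a, a ubiquitin ligase gene with maternal expression in neurons, was 2.52 and 6.11 FPKM in KO+DNMT3A, 1.47 and 3.23 in KO, and 2.43 and 2.98 in WT. Its exons overlap an antisense transcript, and since strand is not stated for these libraries the reads of opposite-strand partners could not be parted.

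Peg13, a paternally expressed noncoding RNA, lies in an intron of Trappc9, a maternally expressed gene for a subunit of the TRAPP trafficking complex, on the same strand of chromosome 15. Peg13 was 10.4 and 7.20 FPKM in KO+DNMT3A, 12.6 and 2.71 in KO, and 1.73 and 7.17 in WT. Trappc9 was 6.71 and 8.58 FPKM in KO+DNMT3A, 5.84 and 1.81 in KO, and 1.93 and 6.13 in WT. The genes were low together in KO replicate 2 and WT replicate 1, and the ratio of Trappc9 to Peg13 stayed between 0.463 and 1.19.

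Igf2r and Airn overlap on opposite strands of chromosome 17. Igf2r encodes the receptor that carries IGF2 and mannose 6-phosphate proteins to lysosomes, and Airn is the paternal antisense RNA that silences it in cis. Igf2r (chr17:12682406-12769664) was 8.82 and 8.72 FPKM in KO+DNMT3A, 8.56 and 5.13 in KO, and 1.68 and 7.90 in WT. Airn was 4.69 and 19.5 FPKM in KO+DNMT3A, 2.79 and 8.06 in KO, and 7.71 and 6.89 in WT. The ratio of Igf2r to Airn ran from 0.218 to 3.07 across libraries. Kcnq1ot1, the silencing RNA of another cluster, was 3.21 and 7.42 FPKM in KO+DNMT3A, 2.70 and 3.51 in KO, and 1.55 and 4.38 in WT, with all groups overlapping. Its targets in cis among the members, Cdkn1c and Phlda2, were the near-silent genes named above.

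Several paternally expressed genes are the only listed members of their domains. Slc38a4 (ENSMUSG00000022464, chr15:96994820-97055956), an amino acid transporter gene, was 38.1 and 16.7 FPKM in KO+DNMT3A, 35.1 and 5.39 in KO, and 1.91 and 29.5 in WT. The lowest values were those of KO replicate 2 and WT replicate 1, so the replicates of KO and those of WT lay far apart. Impact, whose product restrains the amino acid sensor GCN2, was 28.2 and 17.2 FPKM in KO+DNMT3A, 25.3 and 33.2 in KO, and 34.5 and 19.7 in WT. Nap1l5, of the nucleosome assembly protein family, was 15.8 and 26.0 FPKM in KO+DNMT3A, 23.8 and 16.6 in KO, and 9.91 and 24.5 in WT. For Impact the libraries low in insulin were the highest, and for Nap1l5 only WT replicate 1 was low. Zrsr1, a splicing factor gene with a close paralog, was 4.44 and 6.82 FPKM in KO+DNMT3A, 2.14 and 10.9 in KO, and 14.9 and 2.19 in WT; its exons overlap those of Commd1 on the other strand.

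Mest, which encodes a hydrolase-like protein of growing tissue, was 3.60 and 5.44 FPKM in KO+DNMT3A, 4.95 and 0.905 in KO, and listed at 0 and at 1.45 FPKM in WT. Both KO+DNMT3A libraries lay above both WT libraries. Its exons overlap those of Copg2 on the other strand. Asb4, a maternally expressed gene for a ubiquitin ligase adaptor, was 1.14 and 2.38 FPKM in KO+DNMT3A, 0.679 and 0.621 in KO, and listed at 0 and at 1.24 FPKM in WT. Sgce, the paternally expressed ε-sarcoglycan gene, was 0.660 and 1.07 FPKM in KO+DNMT3A, 0.418 and 1.24 in KO, and 0.609 and 0.613 in WT.

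Nnat (ENSMUSG00000067786, chr2:157560078-157562522) encodes neuronatin, a small membrane protein of the endoplasmic reticulum, and lies inside Blcap on the other strand. It was 3.05 and 3.36 FPKM in KO+DNMT3A, 2.15 and 0.892 in KO, and 10.2 and 4.0 in WT. The 3 groups did not overlap, with WT highest and KO lowest. The values are thin: on the longest transcript they rest on about 8.5 and 5.4 fragments in KO+DNMT3A, 4.4 and 1.0 in KO, and 3.6 and 5.6 in WT. Grb10 (chr11:11930508-12038683) was 4.43 and 2.39 FPKM in KO+DNMT3A, 2.99 and 3.43 in KO, and 6.88 and 3.86 in WT. Both KO libraries lay below both WT libraries for Grb10, while KO+DNMT3A overlapped each of the other groups.

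Single libraries often held the extremes of the members' levels. Both KO replicate 2 and WT replicate 1 lay below the other 4 libraries for 10 of the 25 tested members (40%), against 24.9% of all tested genes. These were the maternally expressed Igf2r, Trappc9, Rian and Asb4 (4 of 10) and the paternally expressed Ndn, Slc38a4, Snrpn, Peg13, Mest and Snurf (6 of 15). They lay above the other 4 for Impact and Zrsr1 (8%, against 6.45% of all genes). When each library was scaled to a common median of the tested genes, which for this count was added after the values were seen, 9 members lay below (36%, Asb4 no longer among them) and 15.6% of all genes did, while Grb10 and Zim1 joined the members above. WT replicate 1 was the lowest library, or tied for it, in 13 members (52%) and in 44% of all genes, and KO+DNMT3A replicate 2 the highest in 12 members (48%) and in 19.9% of all genes. The 12 were Gnas, Meg3, Peg3, Nap1l5, Airn, Trappc9, Mirg, Rian, Kcnq1ot1, Ube3a, Mest and Asb4.

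Cell type markers and other measures moved with these libraries. Delta cell markers (3 of 3 tested) summed to 10940 FPKM in KO+DNMT3A replicate 2 and to 466 to 4923 FPKM in the others, the 466 FPKM being WT replicate 1. Most of each sum was Sst, at 10846 FPKM in KO+DNMT3A replicate 2 and 443 FPKM in WT replicate 1. Rbp4 went the same way, at 89.0 and 15.8 FPKM, and Hhex the other way, at 4.46 and 6.79 FPKM. Fibroblast and stellate markers (7 of 7) summed to 1041 FPKM in WT replicate 1 and 141 to 333 FPKM elsewhere. Duct markers (5 of 5) summed to 937 FPKM in WT replicate 1, of which Mmp7 was 639 FPKM, and to 37.9 to 506 FPKM elsewhere. The 506 FPKM was that of KO+DNMT3A replicate 1. Krt19, Clu and Krt7 were highest in that library, and Mmp7 and Sox9 in WT replicate 1. Schwann cell markers (5 of 5) summed to 79.0 FPKM in KO replicate 2 and 12.02 to 30.6 FPKM elsewhere, with Sox10 and S100b at 0 in WT replicate 1. PP markers (2 of 2) were lowest in WT replicate 1, at 1689 FPKM against 8063 to 21551 FPKM, while macrophage markers (7 of 7, 156 to 515 FPKM) and endothelial markers (5 of 5, 15.5 to 37.0 FPKM) did not set both insulin-poor libraries apart from the others. Mitochondrially encoded genes took 50.9% of summed FPKM in KO replicate 2 and 44.8% in WT replicate 1, against 16.5% to 26.5% elsewhere. Malat1, a nuclear noncoding RNA chosen after its values were seen, was 767 and 1698 FPKM in KO+DNMT3A, 473 and 2845 in KO, and 2036 and 920 in WT. The part of cell types, mitochondrial share, nuclear RNA and depth in the members' pattern was not tested. In bulk RNA, fewer cells of a type and less RNA per cell cannot be told apart.

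**Figure D3:**
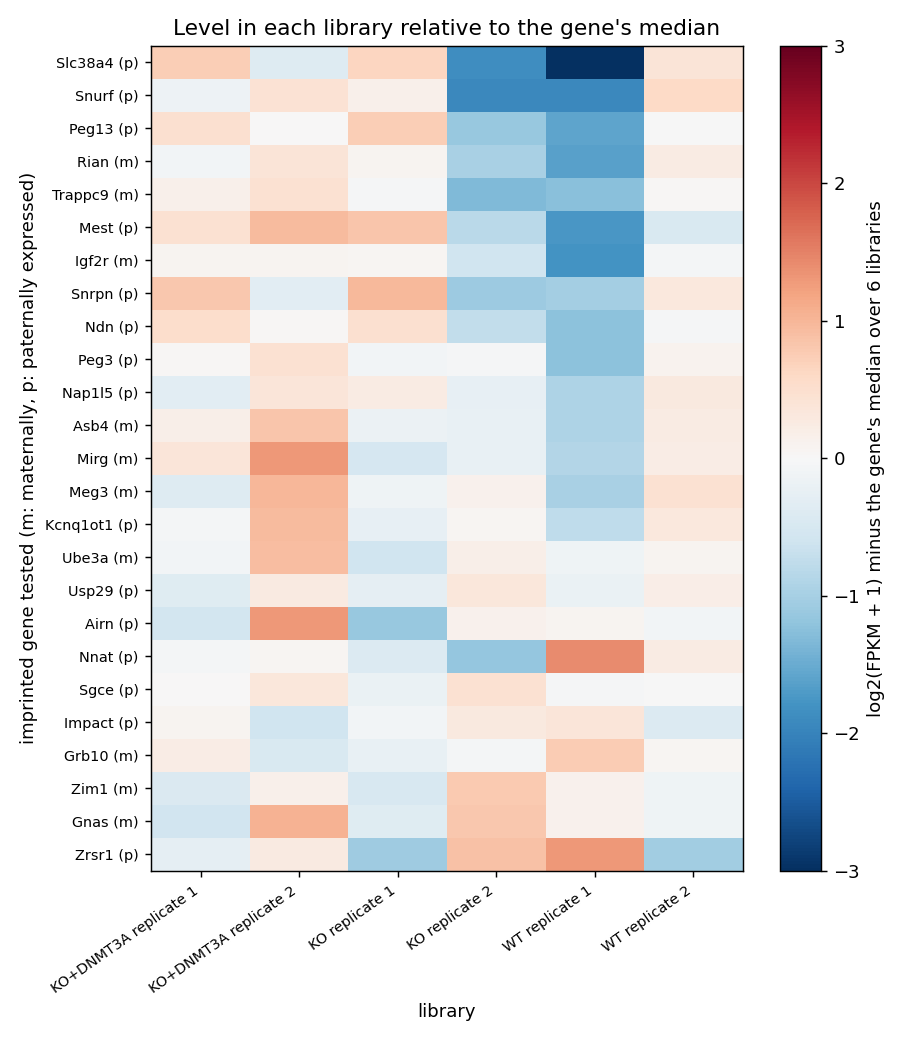
Level of the 25 tested imprinted genes in each library, as log2(FPKM + 1) minus the gene's median over the 6 libraries (red above, blue below). Rows are ordered by how low KO replicate 2 and WT replicate 1 lie, so Slc38a4 and Snurf stand at the top and Zrsr1 at the bottom; KO+DNMT3A replicate 2 is red for Mirg, Airn and Meg3.

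Summed by parental class, the 20 paternally expressed members gave 239 and 228 FPKM in KO+DNMT3A, 238 and 159 in KO, and 124 and 211 in WT. The 13 maternally expressed members gave 124 and 301 FPKM in KO+DNMT3A, 132 and 208 in KO, and 125 and 173 in WT. The paternal sum was lowest in KO replicate 2 and WT replicate 1. Both KO+DNMT3A libraries had a higher paternal sum than both WT libraries, while KO overlapped both other groups. The maternal sum, made up chiefly of Gnas and Meg3, was higher in the library numbered 2 of every group, and all groups overlapped.

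The comparison of KO with WT asks what goes with loss of Raptor in beta cells. No imprinted gene passed the test, and 0 of 13233 genes did (0%; limma, Benjamini-Hochberg adjusted p at 0.05), with 240 genes (1.81%) and 1 member at an unadjusted p under 0.05. The log2 fold changes, computed on FPKM plus 1, were positive for 17 of 25 members (68%), against 52.7% of all genes, with a median of 0.15 for members and 0.03 for all genes. The maternally expressed members had a median of 0.14 and the paternally expressed ones of 0.15. Both KO libraries lay below both WT libraries for Nnat and Grb10 (8% of members, against 10.5% of all genes), and in no member above (0%, against 9.36%), so these shares were near or under the background. The log2 fold change of Nnat was -1.62 (SE 0.60, limma unadjusted p = 0.028, adjusted p = 1) and that of Grb10 -0.56 (SE 0.55, adjusted p = 1). Without WT replicate 1 the members' median was -0.29, against -0.16 for all genes. Positive values were then held by 6 of 25 members (24%), against 37.3% of all genes. Without WT replicate 2 the medians were 0.68 for members and 0.23 for all genes. Without both insulin-poor libraries they were -0.19 and -0.02, with 28% of members positive, against 47.4% of all genes. Nnat was then at -0.67 and Grb10 at -0.29.

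Adding Dnmt3a to βRapKO islets is the subject of the comparison of KO+DNMT3A with KO, and it shares the KO libraries with the comparison above. Dnmt3a itself was 3.62 and 3.80 FPKM in KO+DNMT3A, 3.19 and 2.5 in KO, and 2.94 and 4.43 in WT, so it was within the WT range in KO+DNMT3A. No member and no gene passed (0%; limma), and 147 genes (1.11%) but 0 members had an unadjusted p under 0.05. The log2 fold change was positive for 22 of 25 members (88%), against 68.2% of all genes, with medians of 0.40 and 0.19; by class it was 0.48 for the maternally and 0.40 for the paternally expressed. After median scaling 17 members were positive (68%), against 49.7% of all genes, and after quantile normalization 17 as well, against 48.9%. Without KO+DNMT3A replicate 2, 16 members were positive (64%), a share no higher than the 65.1% of all genes. The members' median was then 0.36, against 0.25 for all genes. Macrophage markers moved with this comparison, summing to 231 and 156 FPKM in KO+DNMT3A, 505 and 314 in KO, and 515 and 502 in WT; their part in the members' values was not tested.

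Both KO+DNMT3A libraries lay above both KO libraries for 6 members (24%), against 17.2% of all genes, and below for none (0%, against 5.43%). Mirg led with a log2 fold change of 1.21 (SE 0.61, limma unadjusted p = 0.085, adjusted p = 1), with a mean of 8.29 ± 4.11 FPKM in KO+DNMT3A against 2.83 ± 0.53 in KO (SD, n = 2 each). Trappc9 followed at 0.97 (SE 0.67) and Nnat at 0.78 (SE 0.60). Asb4 was at 0.70 (SE 0.61), Igf2r at 0.35 (SE 0.68) and Peg3 at 0.29 (SE 0.64), each with a limma adjusted p of 1. Without both insulin-poor libraries Mirg was at 1.35 and Asb4 at 0.68, while Trappc9 was at 0.33, Nnat at 0.42, Peg3 at 0.31 and Igf2r at 0.03; 17 of 25 members were then positive (68%), against 55.3% of all genes. Without KO+DNMT3A replicate 2 Mirg was at 0.74, Asb4 at 0.37 and Peg3 at 0.09.

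KO+DNMT3A against WT shares libraries with both comparisons above. No gene passed (0%; limma), with 379 genes (2.86%) and 1 member at an unadjusted p under 0.05. That member was Mest, with a log2 fold change of 1.80 (SE 0.74, limma unadjusted p = 0.041, adjusted p = 0.997); in WT it rested on about 3.8 fragments in replicate 2 and none in replicate 1, against 18.4 and 16.2 in KO+DNMT3A. Positive values were found for 19 of 25 members (76%), against 64.8% of all genes, with medians of 0.59 and 0.23, and after median scaling for 18 (72%), against 52.8%. The maternally expressed members had a median of 0.70 and the paternally expressed ones of 0.59.

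Both KO+DNMT3A libraries lay above both WT libraries for 7 members (28%), against 19.2% of all genes, and below for Nnat alone (4%, against 7.87%). The 7 were Mest, Mirg at 1.16 (SE 0.61), Peg13 at 1.03 (SE 0.80), Igf2r at 1.0 (SE 0.68), Trappc9 at 0.91 (SE 0.67), Ndn at 0.91 (SE 0.70) and Sgce at 0.20 (SE 0.55), the last of which was -0.28 after quantile normalization. Nnat was at -0.84 (SE 0.60). All 8 have limma adjusted p-values of 0.997 or above. Without WT replicate 1 the members' median was 0.15, against 0.02 for all genes. Mest was then at 1.15, Mirg at 0.61, Peg13 at 0.24, Igf2r at 0.13, Trappc9 at 0.27, Ndn at 0.30 and Nnat at -0.25. The members' median was 1.25 without WT replicate 2, against 0.45 for all genes. It was 0.94 without KO+DNMT3A replicate 1, against 0.21 for all genes. Without KO+DNMT3A replicate 2 the median was 0.18, below the 0.29 of all genes, 64% of members were positive, against 66.0% of all genes, and Mirg was at 0.69 and Sgce at 0.04. Delta and PP marker sums were also higher in both KO+DNMT3A libraries than in both WT libraries. Delta sums were 4116 and 10940 FPKM against 466 and 2595, and PP sums 11492 and 18633 FPKM against 1689 and 8063. The delta sums were mostly Sst. Rbp4 was likewise higher in both KO+DNMT3A libraries, while Hhex overlapped, at 11.4 and 4.46 FPKM against 6.79 and 3.42. The part of these markers was not tested.

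**Figure D4:**
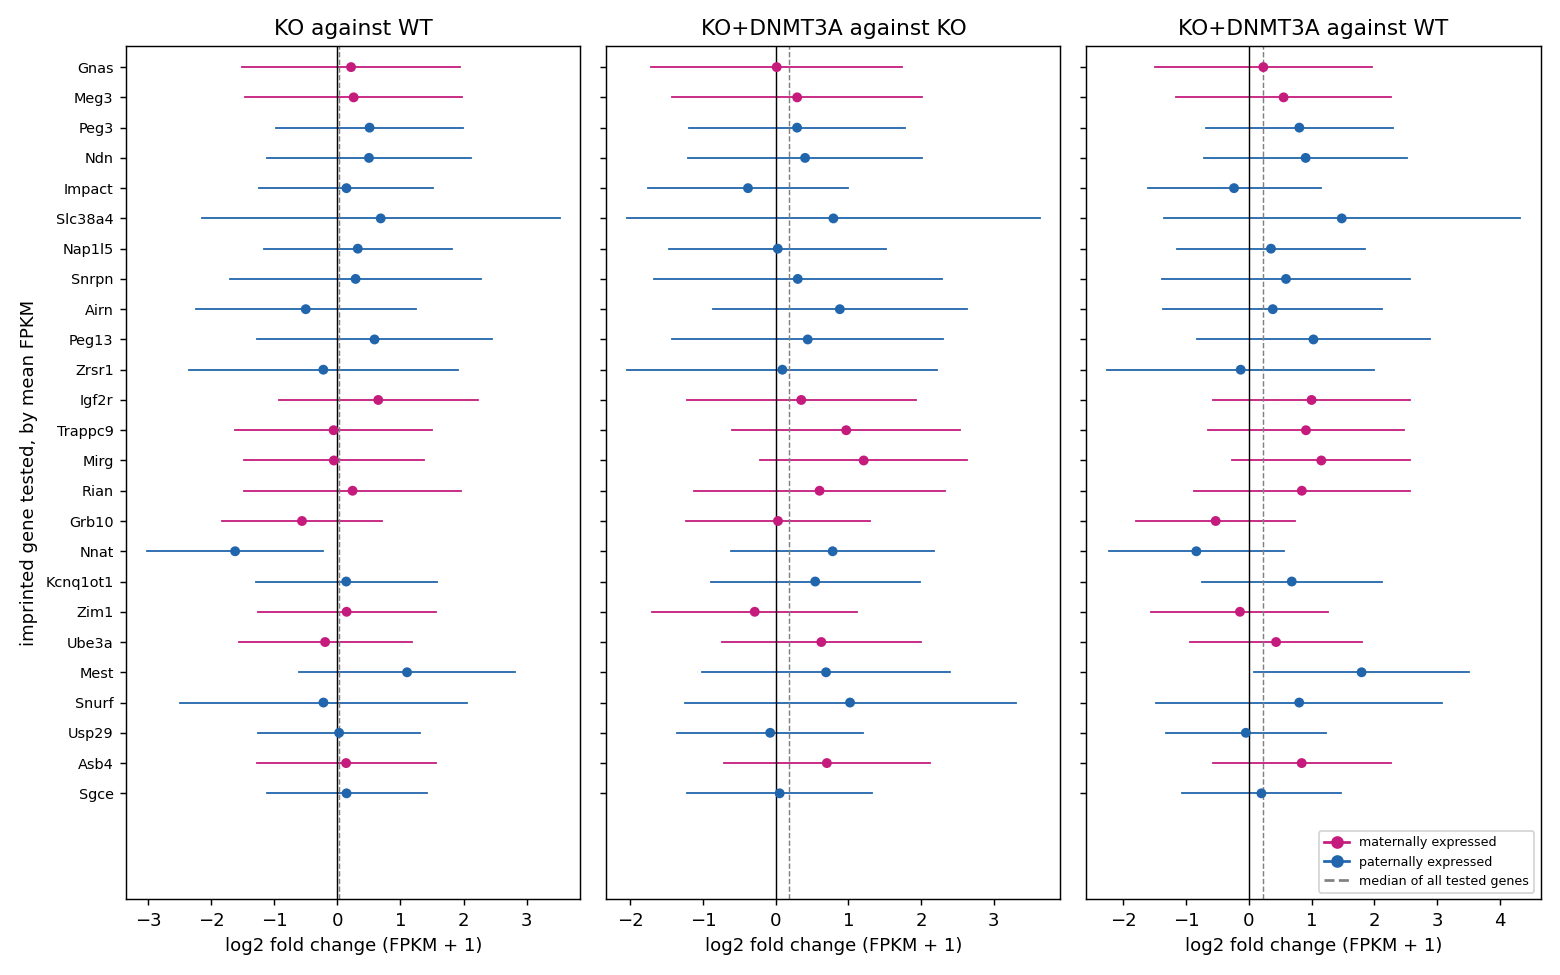
Log2 fold change of the 25 tested imprinted genes, computed on FPKM + 1, in the 3 comparisons, with 95% limma confidence intervals; a positive value is higher in the group named first, and the dashed line is the median of all tested genes. Intervals leave out 0 only for Nnat in KO against WT and Mest in KO+DNMT3A against WT, before adjustment for 13233 genes.

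Other imprinted genes were taken from a list of 50, of which 49 were in the file and 28 were tested. None passed in any of the 3 comparisons, and none had a limma unadjusted p under 0.05. Their median log2 fold change was 0.09 for KO against WT, 0.43 for KO+DNMT3A against KO and 0.34 for KO+DNMT3A against WT, against 0.03, 0.19 and 0.23 for all genes. Positive values were held by 16 (57.1%), 24 (85.7%) and 21 (75%) of the 28 in that order, against 52.7%, 68.2% and 64.8% of all genes, so that the first share was near the background. Those with a mean of at least 10 FPKM were Blcap, H13, Nap1l4, Ddc, Cd81, Dcn and Ins2. Ddc, the aromatic amino acid decarboxylase gene, expressed by beta cells and imprinted in the heart, was 41.6 and 23.4 FPKM in KO+DNMT3A, 41.0 and 5.02 in KO, and 1.53 and 26.5 in WT. H13, a signal peptide peptidase gene, was 27.5 and 21.7 FPKM in KO+DNMT3A, 32.4 and 6.69 in KO, and 6.98 and 20.3 in WT. Both were thus low in the same libraries as Slc38a4, and so was Ins2. The others named did not share this pattern. Blcap, Nap1l4 and Cd81 were lowest in KO replicate 2. In WT replicate 1 they were 10.3, 34.0 and 75.0 FPKM, above at least 1 insulin-rich library each. Dcn was highest in WT replicate 1, at 194 FPKM. Ins2 and Dcn are imprinted outside the islet and also belong to the beta cell and fibroblast marker lists.

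Genes that keep or set imprints were listed apart, and 12 of 18 were tested, with none passing and none at a limma unadjusted p under 0.05 in the 3 comparisons. Their medians were 0.08, 0.08 and 0.17 in the same order. Ctcf, the insulator protein gene of the Igf2 and H19 cluster, was 8.35 and 15.9 FPKM in KO+DNMT3A, 8.99 and 15.6 in KO, and 14.4 and 12.8 in WT. Arid4a was 9.30 and 15.6 FPKM in KO+DNMT3A, 6.90 and 18.4 in KO, and 9.28 and 6.69 in WT. Zfp57 did not pass the filter, with at most 1.27 FPKM, and Nlrp5, an oocyte gene, was listed at 0 in all 6 libraries. For Ctcf all groups overlapped, and for Arid4a the KO libraries lay furthest apart.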

How the data were processed

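Islet RNA was extracted on RNeasy Micro columns and its poly-A fraction prepared for sequencing with TruSeq reagents, as the labels' protocols state. The authors deposited one table of FPKM values, a unit named in its header. The submitters' processing notes name mm10, StringTie 1.3.0, HISAT2 2.0.4 and edgeR without their roles; strandedness is not given in the sources used here. Symbols and positions came from GENCODE M21 (GRCm38/mm10), matched by identifier, and promoters from RefSeq GRCm38.p6.

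Depth was inferred from single-transcript genes, whose values were whole multiples of 1 fragment within 0.01 in 84.7% to 91.8% of values up to 20 fragments. Fragment numbers cover gene-assigned fragments only. The 13233 genes that reached 1 FPKM in 2 or more libraries entered one limma 3.58.1 fit (R 4.3.3) of log2(FPKM + 1) over 6 libraries, with trended robust empirical Bayes, two-sided tests and Benjamini-Hochberg adjustment at 0.05. Fold changes on this scale understate those of low genes.

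The members and lists were chosen with earlier results of these data known. Every member is named, those not tested by their highest value; genes of the other lists are named at a mean of at least 10 FPKM, and others named beyond that, such as Zfp57, were chosen after their values were seen. Alternatives were quantile normalization, scaling to the median, a pseudocount of 0.1 FPKM, filters of 0 and 5 FPKM, no trend, fits of 2 groups only, a replicate block, each library left out and both insulin-poor libraries left out. Python 3.11.15, numpy 2.4.6, pandas 2.3.3 and matplotlib 3.10.9 were used.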

Additional observations from a re-analysis of the deposited data

How the results depend on the processing

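No gene, and so no imprinted gene, passed in any comparison under any of the 15 planned settings. Leaving out each library in turn moved the members' median log2 fold change over -0.29 to 0.68 for KO against WT, 0.31 to 0.50 for KO+DNMT3A against KO and 0.15 to 1.25 for KO+DNMT3A against WT. Under the other settings, those without both insulin-poor libraries set apart, the medians ran from 0.11 to 0.26, 0.15 to 0.42 and 0.35 to 0.81. Without WT replicate 1, 13 of 25 members changed sign in KO against WT and 8 in KO+DNMT3A against WT; without KO replicate 2, 9 did in KO+DNMT3A against KO. Members whose groups do not overlap cannot change sign when a library is left out; under rescaling Sgce in KO+DNMT3A against WT turned round, to -0.28 after quantile normalization, and the cause was not tested. With the replicate block 0 genes were called. Its medians of 0.15, 0.40 and 0.59 could not differ from the main ones, since each block level holds a library of every group. Deviations of same-numbered libraries correlated at r = -0.27 between WT and KO, 0.10 between WT and KO+DNMT3A, and 0.32 between KO and KO+DNMT3A. These values do not settle whether the libraries were paired. The numbers in the deposited column names differ in part from the replicate numbers, and what they stand for is not stated. Crossed pairings, added after the data were seen, also called 0 genes, and their medians were fixed in the same way. Depth limits the low members most: in WT replicate 1 a single fragment on 2 kb is 2.04 FPKM.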
